A study of Homo sapiens with 20 samples.

Results

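The membrane complement regulators CD46, CD55 and CD59 and the anti-phagocytic protein CD47 were followed at the RNA level in myeloma cell lines that had evolved resistance to a proteasome inhibitor. They were taken by gene symbol and make up 4 of the 18305 genes of the deposited expression table, and all 4 were abundant enough to be tested. RNA-seq was done on AMO1, L363 and RPMI-8226, which are myeloma lines, and on ARH-77, which is a B-lymphoblastoid line. Wild-type (WT) cells of each line were grown without drug. Resistant cells of the same line were kept in 90 nM bortezomib (BtzR, all 4 lines) or in 90 nM carfilzomib (CfzR, AMO1 and L363), drugs that block the catalytic sites of the proteasome. All cells shared RPMI-1640 medium with serum, and each of the 10 groups had 2 biological replicates, which gives 20 libraries. Only the resistant cells were in drug, so evolved resistance and the presence of the drug cannot be told apart.

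Values are FPKM (fragment counts scaled to transcript length and to the mapped fragments of the library), and the sequencing depth of each library is unknown. FPKM summed to 457317 to 494850 per library, and 10455 to 11023 genes reached 1 FPKM. The 6 plasma cell markers examined were all at 1 FPKM or more in every library of the myeloma lines. In ARH-77, 5 of those 6 markers reached 1 FPKM in all libraries. Of the 6, 2 were called lower in AMO1 BtzR, 2 in RPMI-8226 BtzR and 1 in ARH-77 BtzR, none was called in L363 BtzR or L363 CfzR, and their part in the results was not tested. Of all tested genes, 4.57%, 7.92% and 0.649% were called lower in AMO1, RPMI-8226 and ARH-77 BtzR. In L363 BtzR and L363 CfzR 2.06% and 1.93% were called in either direction. Red cell and platelet markers summed to at most 0.33 FPKM, the 3 monocyte markers to at most 8.39 FPKM and the 3 T and NK cell markers to at most 14.26 FPKM in any library. The libraries labelled AMO1 CfzR stand apart from their label. On log2(FPKM + 1) across genes they correlated with the L363 libraries at r = 0.986 to 0.992 and with the other AMO1 libraries at r = 0.878 to 0.883, while replicates of a group correlated at r = 0.986 to 0.998. They are therefore called the libraries labelled AMO1 CfzR throughout, and each result on them is given against both AMO1 WT and L363 WT.

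Complement is a cascade of plasma proteins that tags a cell with C3b and C4b, assembles enzyme complexes called convertases on its surface and ends in a membrane attack complex that perforates it. Nucleated cells carry regulators that stop this cascade at different steps. CD46 is the cofactor with which factor I cleaves C3b and C4b, CD55 (decay-accelerating factor) takes convertases apart, and CD59 keeps C9 from completing the membrane attack complex. CD55 and CD59 are held in the membrane by a glycosylphosphatidylinositol (GPI) anchor, and CD46 spans the membrane. CD47 acts on cells rather than on plasma proteins: it binds SIRPA on macrophages and delivers a signal against phagocytosis. These proteins are of interest in myeloma because therapeutic antibodies against surface antigens kill tumour cells in part through complement and through phagocytosis.

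The 4 genes lie at 3 places in the genome, and their promoters are shown because CD46 and CD55 sit in the same gene cluster yet changed differently. Each sequence is the 250 bases upstream of the first listed start of the gene in RefSeq (GRCh38.p14, matched by NCBI gene ID), read 5′ to 3′ on the strand of the gene, and all of it lies before that start. CD46 (gene ID 4179) is at chr1:207751788-207752037 on the plus strand and CD55 (gene ID 1604) at chr1:207321428-207321677 on the plus strand, in the gene cluster of complement regulators. CD59 (gene ID 966) is at chr11:33736480-33736729 and CD47 (gene ID 961) at chr3:108091032-108091281, both on the minus strand. Capitals mark each GC box (GGGCGG) and each core of a cAMP response element (CRE, TGACG), searched on both strands.
CD46: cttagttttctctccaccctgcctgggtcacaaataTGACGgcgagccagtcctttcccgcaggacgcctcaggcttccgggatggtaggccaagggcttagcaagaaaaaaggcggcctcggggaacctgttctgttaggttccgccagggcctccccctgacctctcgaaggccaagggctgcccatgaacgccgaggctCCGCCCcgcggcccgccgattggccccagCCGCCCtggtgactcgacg
CD55: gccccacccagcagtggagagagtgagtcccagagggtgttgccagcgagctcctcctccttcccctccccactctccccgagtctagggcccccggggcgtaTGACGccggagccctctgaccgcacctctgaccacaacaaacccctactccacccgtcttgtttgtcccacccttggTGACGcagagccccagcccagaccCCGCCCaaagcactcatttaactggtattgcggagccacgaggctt
CD59: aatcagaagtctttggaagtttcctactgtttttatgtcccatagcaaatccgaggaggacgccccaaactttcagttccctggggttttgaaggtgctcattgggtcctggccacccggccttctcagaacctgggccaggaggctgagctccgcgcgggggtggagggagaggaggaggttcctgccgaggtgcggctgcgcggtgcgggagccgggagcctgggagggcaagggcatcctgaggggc
CD47: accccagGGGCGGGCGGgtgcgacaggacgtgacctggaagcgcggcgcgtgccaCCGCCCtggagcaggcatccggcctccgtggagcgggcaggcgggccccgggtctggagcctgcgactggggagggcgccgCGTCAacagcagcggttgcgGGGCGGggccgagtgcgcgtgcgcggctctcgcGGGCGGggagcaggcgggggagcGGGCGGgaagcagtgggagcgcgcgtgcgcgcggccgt
The GC content of these windows was 64.8% for CD46, 64% for CD55, 62% for CD59 and 79.6% for CD47, against a median of 58% over the 27305 promoters of the same length. CD47 had 6 GC box matches, CD46 had 2, CD55 had 1 and CD59 had none, and 42.31% of all promoters hold at least 1. The CRE core matched 2 times in CD55, once each in CD46 and CD47 and not in CD59, and 21.66% of all promoters hold it. Of the other motifs searched on both strands, CCAAT matched once in CD46 and once in CD59 (33.04% of promoters), the heat shock element GAANNTTC matched once in CD59 (5.849%), and the antioxidant response core TGACNNNGC matched once in CD47 (11.03%), where it overlaps the CRE core. The E-box CACGTG (6.49%) and TATAAA (11.13%) matched in none of the 4 windows. Such matches describe the letters of a window only. CD46, CD55, CD59 and CD47 have 8, 5, 8 and 2 RefSeq transcripts in the table, and the single FPKM value of each gene does not separate them.

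CD46 was the most abundant of the 4 RNAs in all 20 libraries. It ranged from 24.66 to 102.32 FPKM, which places it between the 82.6th and the 96.4th percentile of the genes in a library, while CD55 ranged from 4.2 to 25.16, CD59 from 5.59 to 30.74 and CD47 from 7.42 to 50.6 FPKM. CD55 was the lowest of the 4 in 14 libraries. CD59 was the lowest in the other 6, namely RPMI-8226 WT and all libraries of ARH-77. The ratio between the highest and the lowest group mean was 3.82 for CD46, 5.20 for CD55, 5.27 for CD59 and 5.82 for CD47, and the largest gap between replicates was 0.37, 0.49, 0.25 and 0.36 on the log2 scale.

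**Figure D1:**
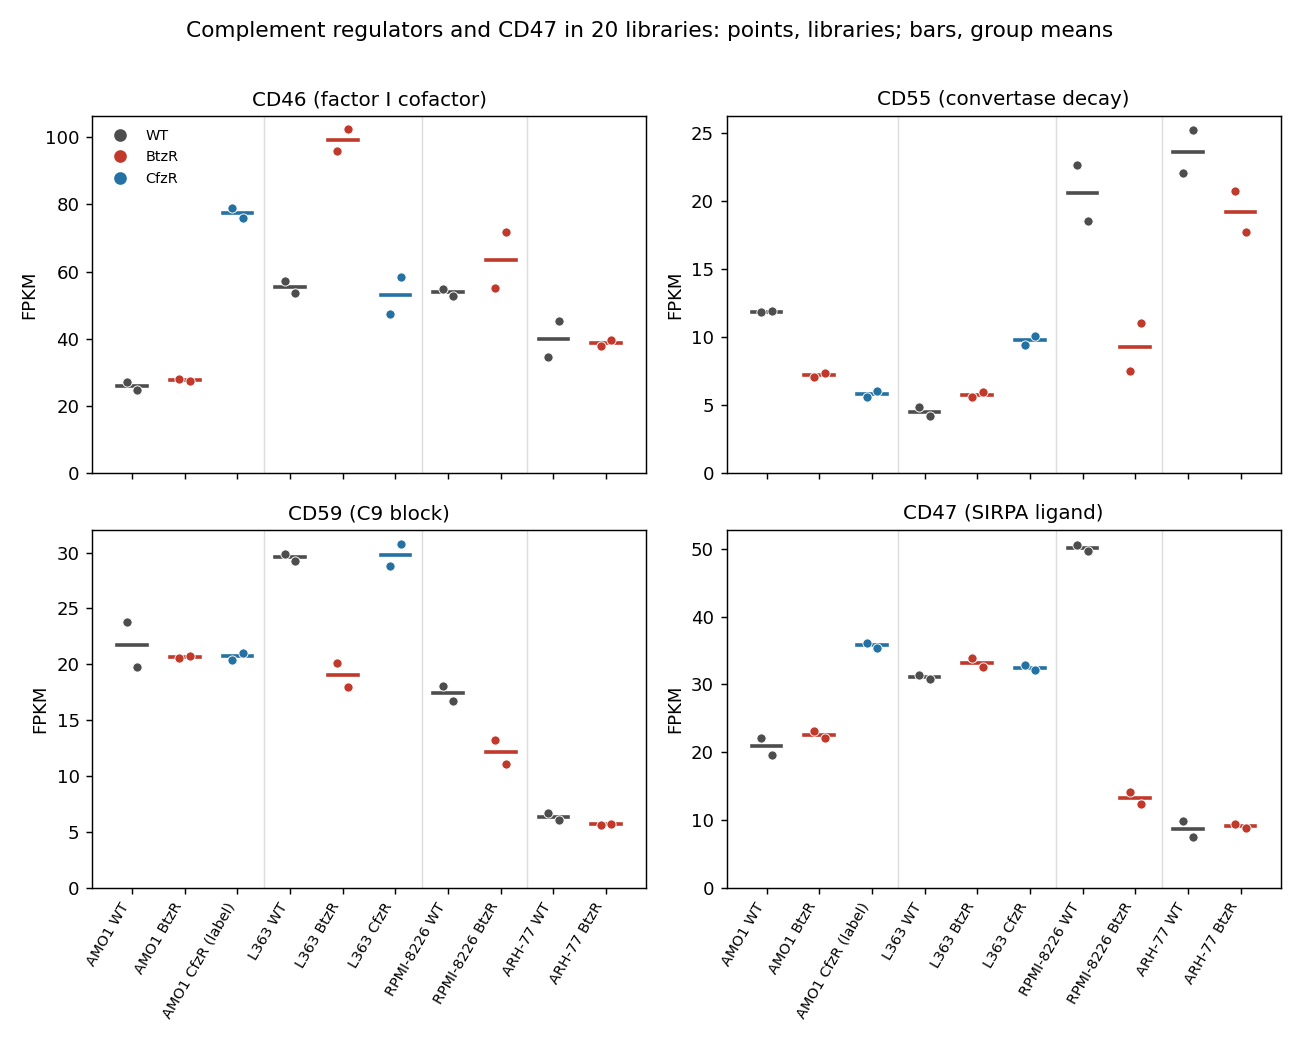
FPKM (vertical axis, from 0) of CD46, CD55, CD59 and CD47 in the 10 groups (horizontal axis), with a point for each of the 20 libraries and a bar for each group mean; gray is WT, red BtzR and blue CfzR. CD47 drops from 50.6 and 49.71 to 14.06 and 12.34 FPKM in RPMI-8226 BtzR, CD46 is highest in L363 BtzR, and CD55 and CD59 run in opposite order between ARH-77 and L363.

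Groups were compared on log2(FPKM + 1) with the moderated test of limma, and p-values were adjusted over the 13089 tested genes by the Benjamini-Hochberg method. A gene passed at an adjusted p under 0.05 and was called where its log2-fold change also reached 1 in absolute value. With 2 libraries against 2, an exact permutation test cannot give a two-sided p below 0.33, so the p-values lean on the spread pooled over all 10 groups. The labels name no separately evolved cells within a group, so the p-values measure the spread of replicates and not of repeated evolution. The pseudocount makes the stated fold changes smaller than the ratios of FPKM. Comparisons of BtzR and CfzR cells with the same WT group share its libraries as controls, so their values are given side by side. Since all libraries come from bulk cultures, fewer cells carrying an RNA and less RNA per cell cannot be told apart.

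CD46, the cofactor of factor I, rose with bortezomib resistance in L363, and its change in BtzR cells of the other 3 lines did not pass. L363 WT had 57.07 and 53.47 FPKM and L363 BtzR had 95.91 and 102.32 FPKM, so that both BtzR libraries lay far above the WT libraries. The log2-fold change was 0.83 ± 0.13 (SE, n = 2 against 2, limma adjusted p = 0.00062), a 1.78-fold difference with a 95% interval of 1.46 to 2.17. In this comparison 11.2% of tested genes passed in either direction, 5.66% passed as higher and 2.06% were called. In L363 CfzR the values were 47.28 and 58.52 FPKM, which enclose both WT values, and the log2-fold change was −0.07 with an interval from −0.35 to 0.21 (adjusted p = 0.921). CD46 thus differed between the resistant derivatives of L363, with a log2-fold change of −0.90 ± 0.13 in CfzR against BtzR (adjusted p = 4.3e-04, against 6.13% of genes that passed and 1.47% that were called).

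In AMO1, the line with the least CD46, the values were 27.25 and 24.66 FPKM in WT and 28.06 and 27.5 FPKM in BtzR. The BtzR libraries were slightly above the WT libraries, and the log2-fold change was 0.10 with an interval from −0.19 to 0.38 (adjusted p = 0.593). In RPMI-8226 the WT libraries had 54.89 and 52.76 FPKM and the BtzR libraries 55.23 and 71.9 FPKM. The replicates of RPMI-8226 BtzR were the farthest apart of any CD46 pair, and the log2-fold change of 0.22 did not pass (interval −0.06 to 0.51, adjusted p = 0.171). Without replicate 1 of RPMI-8226 BtzR it was 0.41 and passed (adjusted p = 0.027). ARH-77 had 34.67 and 45.22 FPKM in WT and 37.91 and 39.61 FPKM in BtzR, with the BtzR values inside the WT range and a log2-fold change of −0.03 (interval −0.31 to 0.25, adjusted p = 0.954).

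CD55, the decay accelerator of convertases, fell in RPMI-8226 BtzR and AMO1 BtzR and rose in L363 CfzR. Line and drug differ together between these changes, so they cannot be told apart. In RPMI-8226 it fell from 22.62 and 18.48 FPKM in WT to 7.53 and 11 FPKM in BtzR. All WT values were above all BtzR values, the log2-fold change was −1.08 ± 0.14 (adjusted p = 1.4e-05), and the level was 2.12-fold lower. In this comparison 13.8% of tested genes were called, 7.92% as lower and 5.91% as higher, and 54.3% passed, 24.2% as lower and 30.2% as higher. The change remained past the adjusted p threshold with any library left out, but it was −0.84 without replicate 1 of RPMI-8226 BtzR and −0.95 without replicate 1 of RPMI-8226 WT, under the fold threshold. In AMO1, CD55 fell from 11.81 and 11.88 FPKM to 7.06 and 7.37 FPKM in BtzR, a log2-fold change of −0.65 ± 0.14 (adjusted p = 0.0016). The replicates lay close together in both AMO1 groups, and 51.2% of genes passed and 9.18% were called in that comparison.

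In L363, which has the least CD55, the change that passed was a rise in CfzR cells. L363 WT had 4.87 and 4.2 FPKM, and L363 CfzR had 9.44 and 10.06 FPKM. CD55 was thus higher in both CfzR libraries, by a log2-fold change of 0.96 ± 0.14 (adjusted p = 3.6e-04), just under the fold threshold, in a comparison where 8.47% of genes passed, 4.88% as higher, and 1.93% were called. L363 BtzR had 5.58 and 5.94 FPKM, and its log2-fold change of 0.29 did not pass (interval −0.01 to 0.59, adjusted p = 0.238). It had an adjusted p of 0.0428 when the fit used the L363 libraries compared and no others. The difference between L363 CfzR and L363 BtzR was 0.67 ± 0.14 (adjusted p = 0.0085), and it had an adjusted p of 0.080 without replicate 1 of L363 BtzR and of 0.076 without replicate 2 of L363 CfzR. In ARH-77, the line with the most CD55, WT had 22.01 and 25.16 FPKM and BtzR 20.72 and 17.69 FPKM. The BtzR values were below the WT values, but the log2-fold change of −0.28 did not pass (interval −0.59 to 0.02, adjusted p = 0.221).

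CD59, the inhibitor of the membrane attack complex, fell in L363 BtzR and RPMI-8226 BtzR. In L363 it went from 29.9 and 29.27 FPKM in WT to 20.12 and 17.92 FPKM in BtzR, with both BtzR values below both WT values and a log2-fold change of −0.61 ± 0.10 (adjusted p = 7.3e-04). In RPMI-8226 it went from 18.07 and 16.69 FPKM to 13.22 and 11.02 FPKM, again without overlap, with a log2-fold change of −0.49 ± 0.10 (adjusted p = 7.4e-04). Neither reached the fold threshold. L363 CfzR had 28.79 and 30.74 FPKM, which bracket the WT values, and a log2-fold change of 0.01 (interval −0.21 to 0.22, adjusted p rounded to 1). The difference between L363 CfzR and L363 BtzR was 0.62 ± 0.10 (adjusted p = 8.9e-04). In AMO1 the values were 23.76 and 19.77 FPKM in WT and 20.56 and 20.71 FPKM in BtzR, a log2-fold change of −0.07 (interval −0.28 to 0.15, adjusted p = 0.619). ARH-77 had the least CD59, with 6.63 and 6.09 FPKM in WT and 5.59 and 5.71 FPKM in BtzR, and its log2-fold change of −0.15 did not pass (interval −0.36 to 0.07, adjusted p = 0.396).

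CD47, the ligand of SIRPA, had the largest change of the 4 genes within a line. In RPMI-8226 it fell from 50.6 and 49.71 FPKM in WT, the highest level of any group, to 14.06 and 12.34 FPKM in BtzR. The log2-fold change was −1.85 ± 0.10 (adjusted p = 8.7e-10), 3.61-fold lower on the log2(FPKM + 1) scale, and it ranged from −1.94 to −1.76 with each library left out. In the other lines with BtzR cells CD47 did not pass. AMO1 had 22.11 and 19.64 FPKM in WT and 23.06 and 22.02 FPKM in BtzR (log2-fold change 0.11, interval −0.11 to 0.33, adjusted p = 0.415). L363 had 31.32 and 30.87 FPKM in WT, 33.86 and 32.53 FPKM in BtzR and 32.81 and 32.11 FPKM in CfzR. These 6 L363 libraries lie within a narrow range, and the log2-fold changes were 0.09 for BtzR (interval −0.13 to 0.31, adjusted p = 0.693) and 0.06 for CfzR (interval −0.16 to 0.28, adjusted p = 0.898). ARH-77 had 9.81 and 7.42 FPKM in WT and 9.33 and 8.75 FPKM in BtzR, with a log2-fold change of 0.07 (interval −0.15 to 0.29, adjusted p = 0.738).

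**Figure D2:**
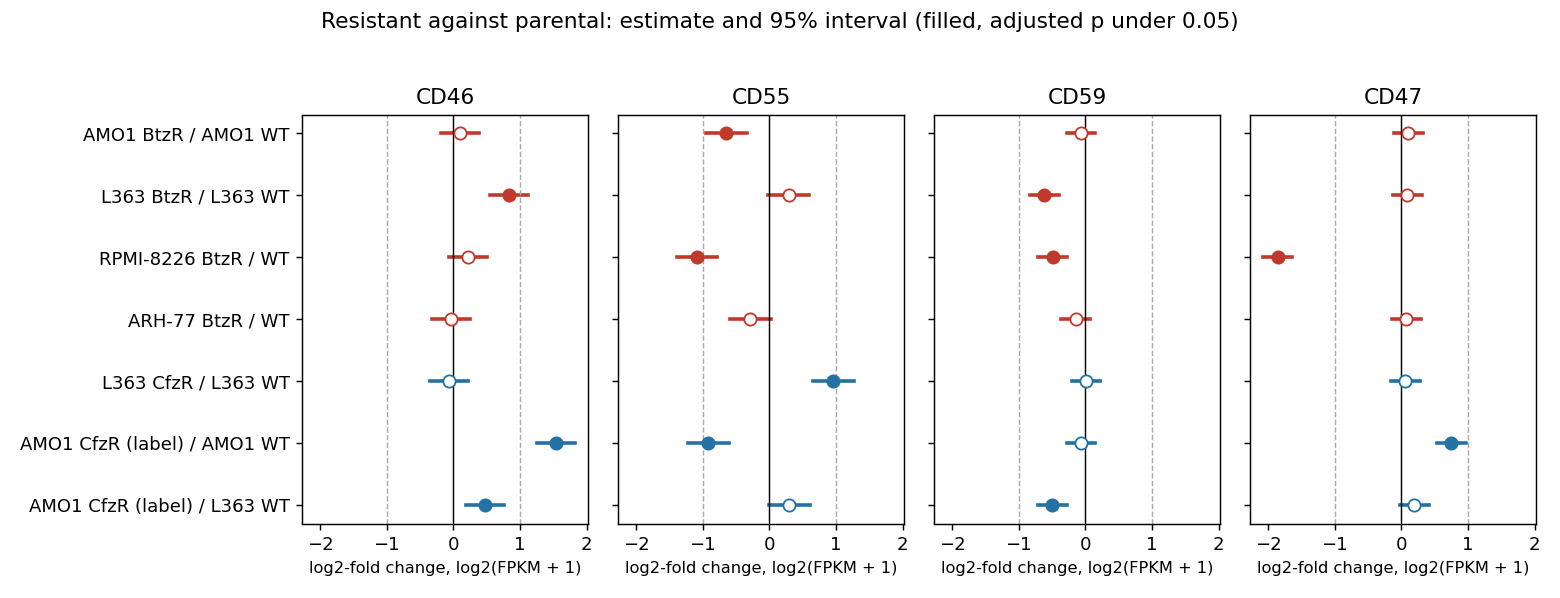
Log2-fold change on log2(FPKM + 1) (horizontal axis) of CD46, CD55, CD59 and CD47 in each comparison of resistant with WT cells (vertical axis), with 95% intervals; filled points passed at an adjusted p under 0.05, dashed lines mark the fold threshold, red is BtzR and blue CfzR. CD47 moves in RPMI-8226 BtzR (−1.85), CD46 in L363 BtzR (0.83), and CD55 falls in AMO1 and RPMI-8226 BtzR but rises in L363 CfzR (0.96).

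Of the 4 genes, 1 passed in AMO1 BtzR, 2 in L363 BtzR, 3 in RPMI-8226 BtzR and none in ARH-77 BtzR. Of all tested genes, 51.2%, 11.2%, 54.3% and 13.6% passed in these comparisons, in the same order. In ARH-77 BtzR 1.6% were called. At an unadjusted p under 0.05 none of the 4 passed in ARH-77 either, and the smallest unadjusted p was 0.065, for CD55. The difference of the BtzR change between the 4 lines was tested by an F test of the interaction, and all 4 genes passed it, with adjusted p = 0.00407 for CD46, 2.2e-04 for CD55, 0.00749 for CD59 and 3.5e-08 for CD47. This test passed for 71.1% of all tested genes. The mean BtzR change over the 4 lines also passed for all 4 genes, as it did for 52.3% of tested genes (1.7% were called), with log2-fold changes of 0.28 ± 0.07 for CD46, −0.43 ± 0.07 for CD55, −0.33 ± 0.05 for CD59 and −0.39 ± 0.05 for CD47. The SE of this mean comes from the pooled spread of replicates. Neither the SE nor the p-value measures variation between lines, so a change in 1 line can make the mean pass. Without L363 the mean for CD46 was 0.10 (adjusted p = 0.304), and without RPMI-8226 the mean was −0.21 for CD55 (adjusted p = 0.051) and 0.09 for CD47 (adjusted p = 0.244). The mean for CD59 passed with any line left out, from −0.42 without AMO1 to −0.23 without L363.

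The libraries labelled AMO1 CfzR had 78.8 and 76.01 FPKM of CD46, 5.57 and 6.06 of CD55, 20.38 and 21.04 of CD59 and 36.15 and 35.35 of CD47. Against AMO1 WT, CD46 was called higher (log2-fold change 1.54 ± 0.13, adjusted p = 1.2e-07), CD47 passed as higher (0.75 ± 0.10, adjusted p = 1.7e-05), CD55 passed as lower (−0.92 ± 0.14, adjusted p = 6.1e-05) and CD59 did not pass (−0.06, interval −0.28 to 0.15, adjusted p = 0.628). In that comparison 57.7% of tested genes passed and 17.1% were called. Against L363 WT, where 6.92% of genes passed and 1.66% were called, CD59 passed as lower (−0.49 ± 0.10, adjusted p = 0.0054), CD46 passed narrowly as higher (0.48 ± 0.13, adjusted p = 0.0429), and CD55 (0.30, interval 0 to 0.61) and CD47 (0.20, interval −0.02 to 0.41) did not pass. The CD46 difference from L363 WT did not pass without the filter on low values, and its adjusted p was up to 0.272 with single libraries left out, and CD59 no longer passed without replicate 1 of the libraries labelled AMO1 CfzR (adjusted p = 0.0602) or of L363 WT.

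The levels of the same libraries were also set beside the resistant L363 groups, a comparison chosen after the data were seen. None of the 4 genes passed against L363 BtzR, where 8.28% of tested genes did and 1.35% were called. The log2-fold changes were −0.35 for CD46 (interval −0.64 to −0.07, adjusted p = 0.128), 0.01 for CD55, 0.12 for CD59 and 0.10 for CD47. Against L363 CfzR, where 4.97% of genes passed and 1.15% were called, CD46 was higher (0.55 ± 0.13, adjusted p = 0.0256), CD55 lower (−0.66 ± 0.14, adjusted p = 0.0127) and CD59 lower (−0.50 ± 0.10, adjusted p = 0.0071), and CD47 did not pass (0.14, interval −0.08 to 0.35).

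Among WT cells, the myeloma lines together had more CD59 and CD47 and less CD55 than ARH-77. CD59 was 3.18-fold higher (log2-fold change 1.67 ± 0.08, adjusted p = 9.9e-11), CD47 3.46-fold higher (1.79 ± 0.08, adjusted p = 5.7e-11) and CD55 2.13-fold lower (−1.09 ± 0.12, adjusted p = 7.1e-07), while CD46 did not pass (0.10, adjusted p = 0.404). In that comparison 73.1% of tested genes passed and 22.3% were called. The 3 myeloma lines did not share 1 level of CD55: RPMI-8226 WT, with a mean of 20.6 ± 2.9 FPKM (SD, n = 2), did not differ detectably from ARH-77 WT, with 23.6 ± 2.2 FPKM (−0.19, interval −0.50 to 0.11, adjusted p = 0.238), and L363 WT, with 4.54 ± 0.47 FPKM, was 4.44-fold below ARH-77 WT. Over the 6 pairs of WT lines, 22 of 24 tests of the 4 genes passed and 12 were called, against 16.6% to 28.4% of genes called per pair. The share of genes that passed was 57.2% for AMO1 against L363, 66.4% for AMO1 against RPMI-8226, 67.1% for AMO1 against ARH-77, 65.6% for L363 against RPMI-8226, 67% for L363 against ARH-77 and 70.8% for RPMI-8226 against ARH-77. CD59 in AMO1 against RPMI-8226, at 0.30, had an adjusted p of 0.184 without replicate 1 of AMO1 WT and did not pass without replicate 2 of RPMI-8226 WT either. Without replicate 1 of ARH-77 WT, CD46 no longer passed in L363 against ARH-77 (0.47 with all libraries, adjusted p = 0.0892 without it) or in RPMI-8226 against ARH-77 (0.43, adjusted p = 0.131), and the latter did not pass without replicate 1 of RPMI-8226 WT either. The pairs that did not pass were CD46 in L363 against RPMI-8226 and CD55 in RPMI-8226 against ARH-77.

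The 10 groups were also ordered by their means of each gene, and only neighbours in that order were compared. Since the same data set the order, the steps are not separate levels. Groups that are not neighbours can differ within a run, as CD46 did between L363 CfzR and L363 BtzR (−0.90, limma adjusted p = 4.3e-04). For CD46, L363 BtzR, the libraries labelled AMO1 CfzR, RPMI-8226 BtzR, L363 WT, RPMI-8226 WT and L363 CfzR followed each other without a neighbouring pair that passed. The steps down to ARH-77 WT (adjusted p = 0.0149) and from ARH-77 BtzR to AMO1 BtzR (adjusted p = 0.0059) passed. CD55 had a single neighbouring step that passed, from ARH-77 BtzR at 19.2 ± 2.1 FPKM to AMO1 WT at 11.8 ± 0.05 FPKM (adjusted p = 9.1e-04). For CD59 the steps from L363 WT to AMO1 WT (adjusted p = 0.0018), from RPMI-8226 WT to RPMI-8226 BtzR (adjusted p = 7.4e-04) and from RPMI-8226 BtzR to ARH-77 WT (adjusted p = 2.8e-06) passed. CD47 had the most such steps, with RPMI-8226 WT alone at the top (adjusted p = 8.1e-04 to the next group), the L363 groups and the libraries labelled AMO1 CfzR below it, then AMO1 (adjusted p = 0.0015 from L363 WT to AMO1 BtzR), RPMI-8226 BtzR (adjusted p = 7.7e-05) and ARH-77 (adjusted p = 4.8e-04).

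The make-up of the 3 complement regulators differed between groups accordingly. CD46 held 43.4% and 43.8% of their summed FPKM in AMO1 WT and 50.4% and 49.5% in AMO1 BtzR. In L363 its share was 62.1% and 61.5% in WT, 78.9% and 81.1% in BtzR and 55.3% and 58.9% in CfzR. In RPMI-8226 it was 57.4% and 60% in WT and 72.7% and 76.6% in BtzR. The CD46 share was thus higher in BtzR than in WT libraries of each myeloma line. The changes that passed were more CD46 and less CD59 in L363, less CD55 in AMO1, and less CD55 and CD59 in RPMI-8226. Changes that did not pass added to the share. Mean CD46 went from 26 to 27.8 FPKM in AMO1 and from 53.8 to 63.6 FPKM in RPMI-8226, and mean CD59 from 21.8 to 20.6 FPKM in AMO1. In ARH-77 the CD46 share was 54.8% and 59.1% in WT and 59% and 62.9% in BtzR, and the ranges overlapped. CD55 held 28.1% to 34.8% of the sum in ARH-77 and 4.59% to 23.7% in the other lines. The summed FPKM of the 3 regulators ran from 55.58 in AMO1 BtzR to 126.18 in L363 BtzR.

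**Figure D3:**
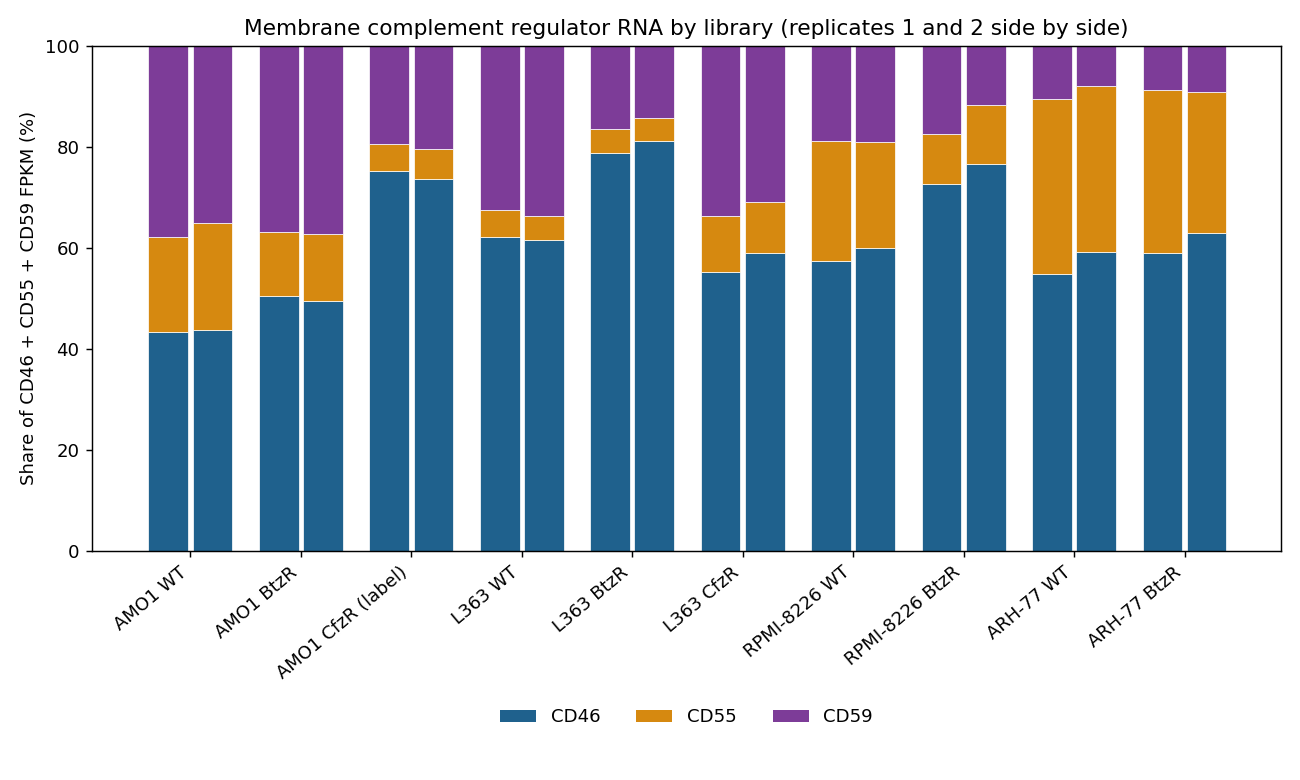
Share (%, vertical axis, 0 to 100) of CD46, CD55 and CD59 in their summed FPKM in each library, with the replicates of the 10 groups side by side. The CD46 share is 62.1% and 61.5% in L363 WT and 78.9% and 81.1% in L363 BtzR, and the CD55 share is largest in ARH-77.

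Other regulators of complement were mostly low in these lines, and 8 of the 17 listed were tested. In RPMI-8226 BtzR 2 of the 8 were called higher and 2 lower, against 5.91% and 7.92% of all tested genes, and the median of the 8 was 0.00, against 0.05 for all tested genes. C4BPB, a subunit of the C4b-binding protein, was at 6.32 and 5.86 FPKM in RPMI-8226 WT and listed at 0 in both BtzR libraries. CR2, the receptor for C3d on B cells, fell from 5.99 and 5.94 to 0.06 and 0.13 FPKM (log2-fold change −2.67 ± 0.14, adjusted p = 3.6e-10). CLU (clusterin), a fluid-phase inhibitor of the membrane attack complex, went the other way, from 4.89 and 5.52 to 20.73 and 23.94 FPKM (1.91 ± 0.21, adjusted p = 1.8e-06), against 24.7 and 23.04 FPKM in AMO1 WT. In ARH-77 BtzR CFP (properdin), which stabilises a convertase, rose from 2.88 and 2.2 to 9.7 and 8.12 FPKM (1.49 ± 0.11, adjusted p = 4.9e-07), and it was the only one of the 8 called there, in a comparison where 0.955% of tested genes were called higher and 0.649% lower. None was called in AMO1 BtzR, L363 BtzR or L363 CfzR, where 9.18%, 2.06% and 1.93% of all tested genes were called. A gene was tested if its mean reached 1 FPKM in any group, so some of the 8 were near 0 in these lines. C4BPB was at −2.83 in AMO1 WT and −2.78 in L363 WT against RPMI-8226 WT, and at −2.83 when it went to 0 in RPMI-8226 BtzR. Such genes could not be called lower, so the shares of all tested genes are not a like background for these counts. CR1L, the gene beside CD46, was at most 0.19 FPKM in any library.

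Of 29 listed components and receptors, 26 were in the table and 13 were tested. C3 was at most 0.84 FPKM and C9 at most 0.04 FPKM in any library. In RPMI-8226 BtzR 4 of the 13 were called lower and none higher, against 7.92% and 5.91% of all tested genes, with a median of −0.18. C3AR1, the receptor for C3a, fell from 9.52 and 7.56 to 0.83 and 0.65 FPKM (−2.45 ± 0.10, adjusted p = 2.5e-11). C4A was at 9.91 and 5.04 FPKM in WT and at 0 and 0.5 FPKM in BtzR, and C4B at 4.18 and 1.94 and then 0.7 and 0 FPKM, but these near-identical copies share reads and their separate values are uncertain. In AMO1 BtzR 2 of the 13 were called higher and 2 lower, against 4.61% and 4.57% of tested genes. C5AR2, another receptor for C5a, rose from 0.09 and 0.49 to 2.4 and 2.83 FPKM (1.5 ± 0.17, adjusted p = 4.2e-06), and C1R, a protease of the C1 complex, fell from 2.35 and 2.31 to 0.41 and 0.62 FPKM (−1.14 ± 0.09, adjusted p = 1.1e-07). In the comparisons with WT none was called in L363 BtzR, L363 CfzR or ARH-77 BtzR, where 2.06%, 1.93% and 1.6% of all tested genes were called. Some of the 13 were near 0 in these lines and could not be called lower there. C3AR1, for one, was at −2.93 in L363 WT against RPMI-8226 WT, and at 3.20 in RPMI-8226 WT against ARH-77 WT.

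CD47 works together with its receptor, with enzymes that modify its N terminus and with signals that favour or oppose phagocytosis, and 11 of 12 such genes were tested. In RPMI-8226 BtzR 2 of the 11 were called lower and none higher, against 7.92% and 5.91% of all tested genes, with a median of −0.18. SIRPA, the receptor of CD47, fell in the same cells from 9.54 and 9.4 to 0.89 and 0.78 FPKM (−2.51 ± 0.19, adjusted p = 4.2e-08). CALR (calreticulin), which favours phagocytosis when it is exposed on the surface, fell from 887.67 and 746.35 to 458.91 and 352.31 FPKM (−1.02 ± 0.20, adjusted p = 5.0e-04). QPCTL, the enzyme that modifies the N terminus of CD47 for SIRPA binding, was between 8.21 and 19.36 FPKM in all 20 libraries and was called in none of the 6 comparisons with WT. In ARH-77 BtzR SIRPB1, an activating relative of SIRPA, rose from 2.41 and 3.32 to 9.72 and 11.83 FPKM (1.61 ± 0.15, adjusted p = 3.0e-06) and CD24, another signal against phagocytosis, from 1 and 1.11 to 4.2 and 3.02 FPKM (1.15 ± 0.15, adjusted p = 9.8e-05). LILRB1, an inhibitory receptor for MHC class I, fell in AMO1 BtzR from 7.08 and 10.57 to 1.24 and 1.52 FPKM (−2.02 ± 0.17, adjusted p = 2.5e-07).

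Genes of this list also bear on the label of AMO1 CfzR. QPCT, the secreted relative of QPCTL, was at 0.1 FPKM in both AMO1 WT libraries and at 378.13 and 346.76 FPKM in L363 WT, and the pair under that label had 339.43 and 334.79 FPKM. SIRPA was at 0 and 0.05 FPKM in that pair, at 6.88 and 4.66 FPKM in AMO1 WT and at 0.04 and 0.03 FPKM in L363 WT.

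ADGRE5 (CD97), an adhesion receptor that binds CD55, was, in the comparisons of resistant with WT cells, the called gene among the 3 tested of 4 genes that bind or shed the members. It rose in RPMI-8226 BtzR from 13.48 and 13.6 to 27.92 and 36.09 FPKM (1.17 ± 0.15, adjusted p = 1.2e-05), where CD55 fell. It also rose in L363 CfzR from 5.03 and 5.61 to 10.97 and 14.37 FPKM (1.10 ± 0.15, adjusted p = 1.8e-04), where CD55 rose. In AMO1 BtzR, with 29.73 and 32.46 FPKM against 35.09 and 31.21 FPKM in WT, it did not pass. The libraries labelled AMO1 CfzR had 10.11 and 13.24 FPKM of ADGRE5, called lower against AMO1 WT (−1.44 ± 0.15, adjusted p = 1.1e-06), where CD55 also passed as lower. Against L363 WT, with 5.03 and 5.61 FPKM of ADGRE5, the direction was the other way. In that comparison none of the 3 tested genes was called, and 1.66% of all tested genes were.

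The GPI anchor that holds CD55 and CD59 is built by a series of enzymes, and 25 of 26 genes of its synthesis and remodelling were tested. In RPMI-8226 BtzR 7 of the 25 passed as higher and 6 as lower, with 1 and 2 called, and a median of −0.08. These counts are near the background, in which 30.2% of all tested genes passed as higher, 24.2% passed as lower, 5.91% were called higher and 7.92% were called lower. PIGP, a subunit of the complex that starts anchor synthesis, fell the furthest of all 25, from 17.17 and 18.56 to 0.65 and 0.7 FPKM (−3.49 ± 0.10, adjusted p = 3.5e-13). In the other 18 libraries PIGP was between 15.22 and 30.09 FPKM. PIGF, which acts late in anchor synthesis, fell from 37.59 and 32.84 to 16.29 and 15.71 FPKM (−1.09 ± 0.11, adjusted p = 8.6e-07), and PGAP1, which trims the lipid of finished anchors, rose from 1.09 and 1.11 to 3.24 and 3.64 FPKM (1.08 ± 0.08, adjusted p = 5.6e-08). In AMO1 BtzR PIGL, the de-acetylase of the second step, fell from 6.2 and 6.04 to 2.09 and 1.56 FPKM (−1.34 ± 0.14, adjusted p = 1.8e-06). None of the 25 was called in L363 BtzR, L363 CfzR or ARH-77 BtzR, where only 2.06%, 1.93% and 1.6% of all tested genes were called. Anchored protein on the cell surface was not measured by this assay.

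**Figure D4:**
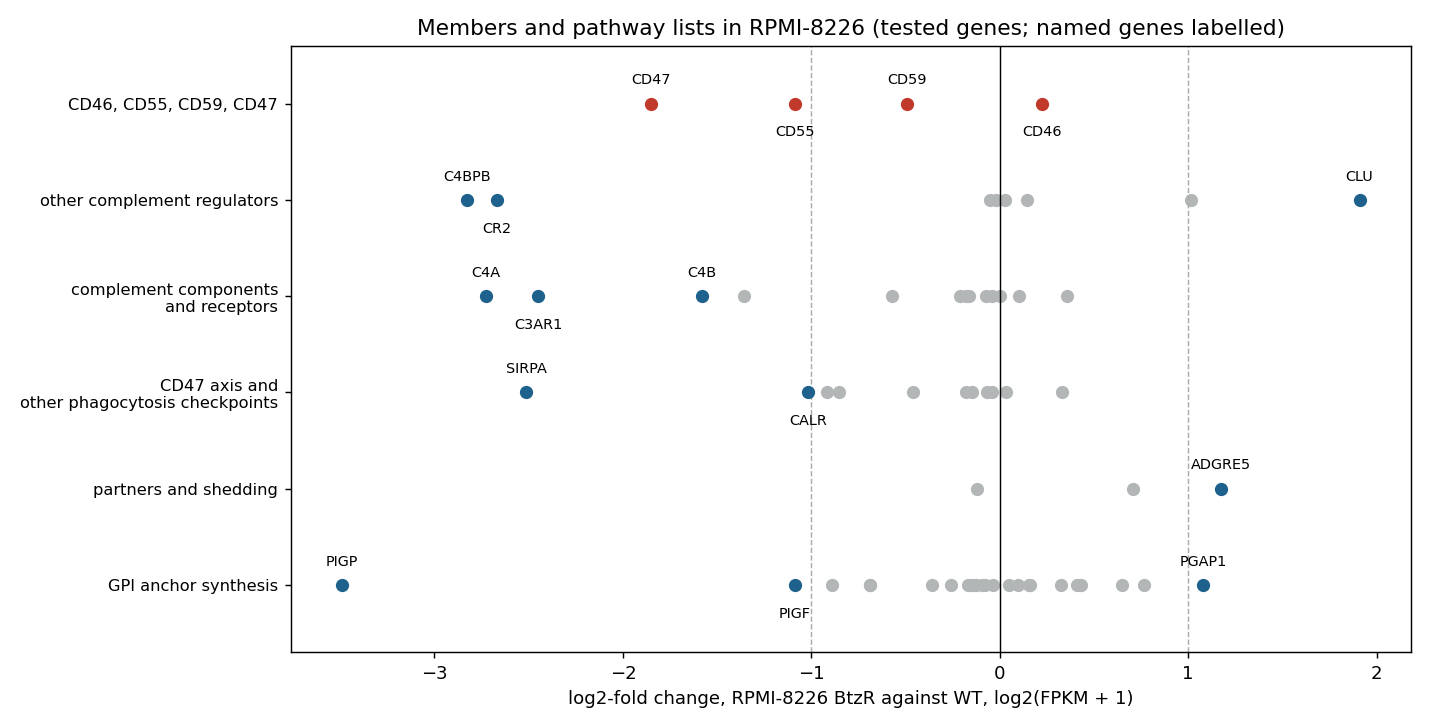
Log2-fold change in RPMI-8226 BtzR against WT on log2(FPKM + 1) (horizontal axis) for CD46, CD55, CD59 and CD47 and for the tested genes of each list (rows), with genes named in the text labelled, and dashed lines at the fold threshold. CD47 (−1.85) and SIRPA (−2.51) both lie to the left, CLU (1.91) and ADGRE5 (1.17) to the right, and PIGP (−3.49) lies outside the range of the other GPI anchor genes.

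Neighbouring genes did not all move with the members, and in RPMI-8226 BtzR 24.2% of all tested genes passed as lower and 30.2% as higher. CD55 and CD46 are 4 listed genes apart in RefSeq order. In RPMI-8226 BtzR, CR2 and C4BPB, which flank CD55 within 2 listed genes, and YOD1 (−1.86) were called lower along with CD55, whereas CR1 (−0.02) and CD46 (0.22), further on in the same cluster, did not pass. CR1 was already lower in RPMI-8226 WT than in ARH-77 WT (−1.68), by nearly as much as in AMO1 WT (−1.76) and L363 WT (−1.74). It may thus have had little room to fall in RPMI-8226 BtzR, so its lack of change does not set it apart from CD55. Around CD59, 6 of the 7 tested neighbours passed as lower and ABTB2 passed as higher (1.01) in that comparison, and FBXO3, its next listed gene, changed by −0.78 (adjusted p = 1.8e-05). Around CD47, 5 of 8 tested neighbours passed as lower, among them ALCAM (−3.77) and CIP2A (−1.34), and HHLA2 was called higher (2.56). In L363 BtzR, where CD46 rose and CD59 fell, none of the 6 tested neighbours of CD46 and none of the 7 of CD59 passed. In that comparison 11.2% of all tested genes passed. In L363 CfzR, where CD55 rose, none of its 6 tested neighbours passed, against 8.47% of all tested genes. With so few genes passing, these counts do not set the members apart from their neighbours.

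Over the 10 group means, the genes with the pattern most like each member were found among 9655 genes whose means spanned at least 1 log2 unit. For CD46 they were ZNF692 (r = 0.942), STXBP2 (r = 0.918) and ZBTB40 (r = 0.917). For CD55 they were NMI (r = 0.966), NPPA (r = 0.944) and TLE3 (r = 0.943), and for CD47 they were VEGFB (r = 0.971), BSCL2 (r = 0.962) and WFS1 (r = 0.958). NPPA was low throughout, with group means from 0.135 to 1.89 FPKM, and NMI had a mean of 0.65 FPKM in L363 WT. For CD59 the first was FBXO3 (r = 0.97), the gene next to it on chromosome 11, followed by SPTY2D1 (r = 0.968) and SELENOK (r = 0.966). Among the members, CD59 and CD47 were the most alike (r = 0.828) and CD55 and CD59 the most opposed (r = −0.711). These values describe 10 means from 4 lines, several of which share a line, and they carry no test.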

How the data were processed

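RNA-seq was performed on 20 libraries in 10 groups of 2 biological replicates, and the labels gave each library's line, resistance and replicate. The replicate numbers are not stated to pair samples. The authors deposited 1 FPKM value per gene and library, and the submitters' processing notes list HISAT2 2.0.4, Bowtie2 2.2.5 and RSEM 1.2.12. The genome build is not given in the sources used here, and no normalization between libraries beyond FPKM is stated, so a shift in a few very abundant RNAs can move all other values. Without read counts the depth is unknown, and no counting interval was computed.

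Analysis was on the scale log2(FPKM + 1). A mean per group was fitted to all 20 libraries in limma 3.58.1 (R 4.3.3) with a mean-variance trend and 10 residual degrees of freedom, for 13089 genes (those with a mean of 1 FPKM or more in any group). P-values were adjusted by the Benjamini-Hochberg method over all tested genes. The scripts were tested on simulated data. Alternatives were pseudocounts of 0.1 and 0.01, no filter and a filter of 5 FPKM, rescaling to the same sum, quantile normalization, no trend, a replicate block, the compared libraries only and each library left out. Fits with a line left out of the mean BtzR change, and the comparison of the libraries labelled AMO1 CfzR with L363 BtzR and L363 CfzR, were added after seeing the data.

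The members and the gene lists were chosen with earlier results of these data known. From each list, at most the 3 called genes with the largest change whose libraries do not overlap were named per comparison, and named neighbours of a member were those called with it, except where a neighbour is given for its place beside a member. QPCTL, CR1L, C3, C9, CR1, FBXO3 and PIGP in the other groups were described after their values were seen. Promoters and the order of neighbouring genes were taken from RefSeq (GRCh38.p14). Figures were drawn with matplotlib 3.10.9. The B-cell marker list is not reported here.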

Additional observations from a re-analysis of the deposited data

Results flagged for a closer look

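The change from WT to BtzR cells differed between AMO1, L363, RPMI-8226 and ARH-77 for each of the 4 genes, by limma's F test of the interaction over all 20 libraries. The adjusted p was 3.5e-08 for CD47, 2.2e-04 for CD55, 0.00407 for CD46 and 0.00749 for CD59. The log2-fold change of CD47 was −1.85 in RPMI-8226 and lay between 0.07 and 0.11 in the other 3 lines. CD55 lay between −1.08 in RPMI-8226 and 0.29 in L363, CD46 between −0.03 in ARH-77 and 0.83 in L363, and CD59 between −0.61 in L363 and −0.07 in AMO1. The same test passed for 71.1% of all tested genes.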

How the results depend on the processing

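Of 675 values for counts of the 4 genes under the alternatives, 648 stayed within 1.5 times, and of 1988 values for single genes, 1940 kept their direction and their side of the threshold. Many of these values come from fits that leave out a library outside the comparison. There the fold change cannot move, and only the pooled spread and the adjusted p can. These totals therefore overstate how well the results hold. With pseudocounts of 0.1 and 0.01 the genes called rose from 1 to 2 in the libraries labelled AMO1 CfzR against AMO1 WT and from 0 to 1 in L363 CfzR, where the value for CD55 lies at the fold threshold. In the libraries labelled AMO1 CfzR against L363 WT, 1 gene rather than 2 passed with no filter, with libraries rescaled to the same sum and with quantile normalization. The mean BtzR change passed for 2 rather than 4 genes without RPMI-8226, where the mean for CD47 reversed to 0.091. CD46 reversed to −0.017 in L363 against RPMI-8226 WT with rescaled libraries and to 0.026 in ARH-77 BtzR with quantile normalization, and neither passed. The cause of these shifts was not tested.

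With each library left out in turn, and the lone library of its group assumed to vary like the other groups, the genes called ranged from 0 to 1 in L363 CfzR (1 without replicate 1 of L363 CfzR or L363 WT), from 0 to 1 in L363 CfzR against BtzR (1 without replicate 2 of L363 CfzR) and from 1 to 2 in RPMI-8226 BtzR, and the genes that passed ranged from 0 to 2 in the libraries labelled AMO1 CfzR against L363 WT (0 without replicate 1 of either group). The direction turned for CD59 in AMO1 BtzR (−0.19 to 0.059), in the libraries labelled AMO1 CfzR against AMO1 WT (−0.19 to 0.064) and in L363 CfzR (−0.038 to 0.054). It turned for CD46 in L363 CfzR (−0.22 to 0.082), ARH-77 BtzR (−0.22 to 0.16), myeloma against ARH-77 WT (−0.083 to 0.29, with an adjusted p of 0.0486 without replicate 2 of ARH-77 WT) and L363 against RPMI-8226 WT (−0.0091 to 0.083), and for CD47 in ARH-77 BtzR (−0.11 to 0.25). None of these had passed with all libraries.

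Deviations of libraries with the same replicate number correlated at r = −0.0055 in AMO1 WT and BtzR and at r = 0.12 to 0.245 in the other comparisons of resistant with WT cells, and nothing in the labels says that the numbers pair the samples. With the replicate block, 3 of the 4 genes passed and 2 were called in RPMI-8226 BtzR, as without it, and 7398 genes passed rather than 7112. Over all genes in RPMI-8226 BtzR, 1809 were called, and 2722 and 2846 with pseudocounts of 0.1 and 0.01. Depth is unknown, so low values such as those of C4A and C4B carry no counting error, and 2 libraries a group leave each spread to the pooled fit.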
